A study of Oryza sativa Japonica Group with 6 samples.

Results

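The strigolactone pathway dwarf genes *D3*, *D10*, *D14*, *D17*, *D27* and *D53* and the transcription factor gene *OsTB1* were followed in RNA-seq of young rice panicles. They were chosen by name and locus identifier, as 7 of the pathway's best-known genes, and 6 of them had a row among the 42189 genes of the deposited values. *D27* (LOC_Os11g37650) was not analysed here. The panicles were collected before heading from the *indica* restorer line 187R, which carries *HFR131*, and from NIL-*hfr131*, which carries the *hfr131* allele of the brassinosteroid receptor gene *OsBRI1* on a fragment of chromosome 1 from wild *Oryza longistaminata*. Each line gave 3 libraries, labelled as biological replicates under natural treatment, and both lines share the 187R background. NIL-*hfr131* is a single introgression line, so the receptor allele and the other donor genes of its fragment cannot be told apart. Levels are given as TPM, in which the reads of a gene are scaled by its length and every library has the same total, so that genes can be compared with one another.

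Strigolactones are hormones made from carotenoids that hold back the outgrowth of tiller buds, and rice mutants of the pathway are short plants with many tillers. In the plastid, the isomerase D27 and the carotenoid cleavage dioxygenases D17 and D10 act in turn to make the precursor carlactone. The hormone is bound and hydrolysed by D14, which then joins the F-box protein D3 to mark the repressor D53 for degradation. OsTB1, a TCP transcription factor, restrains bud outgrowth in the axillary meristem. Much of this control acts on proteins, which transcript levels do not show.

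The 6 libraries differed in ways that touch every gene below. NIL-*hfr131* replicate 3 stood apart. Across genes, the Pearson correlation of log2(TPM + 1) between it and the other 5 libraries was 0.916 to 0.937, against 0.982 to 0.991 among those 5, so the differences between the lines are given with and without this library. Of 21531 genes with a mean of at least 1 TPM, 13.5% lay more than 1 from the mean of the other libraries on the log2(TPM + 1) scale in that replicate. The panicle label was checked with 9 loci chosen as floral organ markers, all of which were at 62.1 TPM or more in every library, and their summed level was 2296 to 2554 TPM in 187R and 2486 to 2681 TPM in NIL-*hfr131*. The 5 leaf marker loci summed to 979 TPM in NIL-*hfr131* replicate 3 and to 1443 to 1661 TPM elsewhere. The 5 meiosis loci summed to 44.3 to 46.7 TPM in 187R and 33.1 to 50.6 TPM in NIL-*hfr131*, with replicate 3 at the top. The 6 tapetum loci summed to 1403 to 1584 TPM in 187R and 2013 to 2475 TPM in NIL-*hfr131*. Without their most abundant locus, the tapetum sums overlapped, at 985 to 1075 and 802 to 1095 TPM. No marker locus was at 0 in any library, and 1 of the leaf loci and 1 of the tapetum loci passed the test, both higher in NIL-*hfr131*. In whole panicles, fewer cells of a type and less RNA per cell cannot be told apart.

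Among the 6 measured members, the receptor gene gave the most abundant transcript and the synthesis genes were the least. By the median over the 6 libraries, *D14* stood at 80.2 TPM, *D53* at 17.7, *D3* at 8.27, *OsTB1* at 4.64, *D10* at 2.03 and *D17* at 1.75 TPM. From *D14* down to *D10*, each gene exceeded the next in every library, and the ranges of neighbours were separate within both lines. Some gaps in NIL-*hfr131* were narrow. There the lowest *D14* was 48.1 TPM and the highest *D53* 45.4 TPM, both in replicate 3. The lowest *D3* was 6.641 TPM and the highest *OsTB1* 6.636 TPM. *D10* and *D17* overlapped in both lines, and *D10* was the higher in 5 of 6 libraries. Over all 6 libraries, the gap between the receptor *D14* and the repressor *D53* was the least stable, at 1.06-fold to 6.07-fold. The 1.06-fold gap was that of NIL-*hfr131* replicate 3, and the other 5 libraries spanned 3.10-fold to 6.07-fold. The ratio of *D10* to *D17* spanned 0.887 to 3.14. Among the tested genes of a library, *D14* lay at percentiles 77.5 to 91.3, *D53* at 55.4 to 76.2 and *D17* at 0.994 to 13.1.

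**Figure D1:**
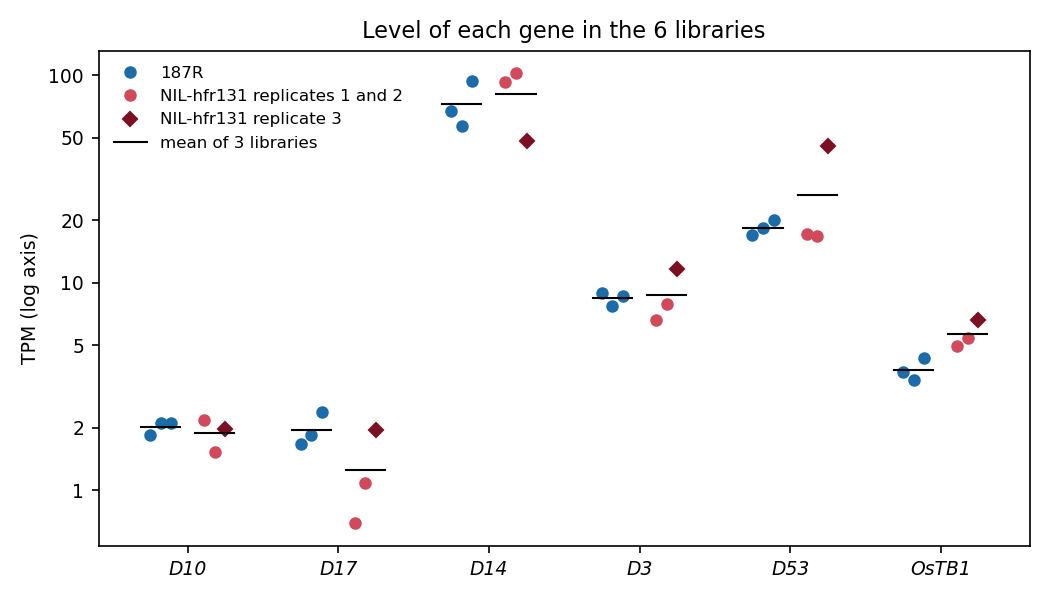
Level of each gene in TPM on a log axis, 1 point per library, with black bars for the mean of 3 libraries. *OsTB1* is the gene whose lines do not overlap, which held for 18.5% of all tested genes in either direction. NIL-*hfr131* replicate 3 (diamonds) is the highest library for *D53* at 45.4 TPM and the lowest for *D14* at 48.1 TPM.

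No member passed the test of the difference between the lines. With limma on log2(TPM + 1) and Benjamini-Hochberg adjustment over all 21531 tested genes, 0 of the 6 had an adjusted *P* under 0.05, a threshold that 0.307% of all tested genes passed. At an unadjusted *P* under 0.05, 1 member passed, *OsTB1*, against 8.36% of all tested genes. Without NIL-*hfr131* replicate 3, 0 of 6 passed the adjusted threshold, against 1.80% of all genes, and 2 passed unadjusted, *OsTB1* and *D17*, against 14.8%. The median log2 fold change of the members was 0.063, beside 0.052 over all tested genes, and both turned negative without that library, at -0.10 and -0.033. The 95% intervals were wide, so a member below the threshold may still differ between the lines.

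**Figure D2:**
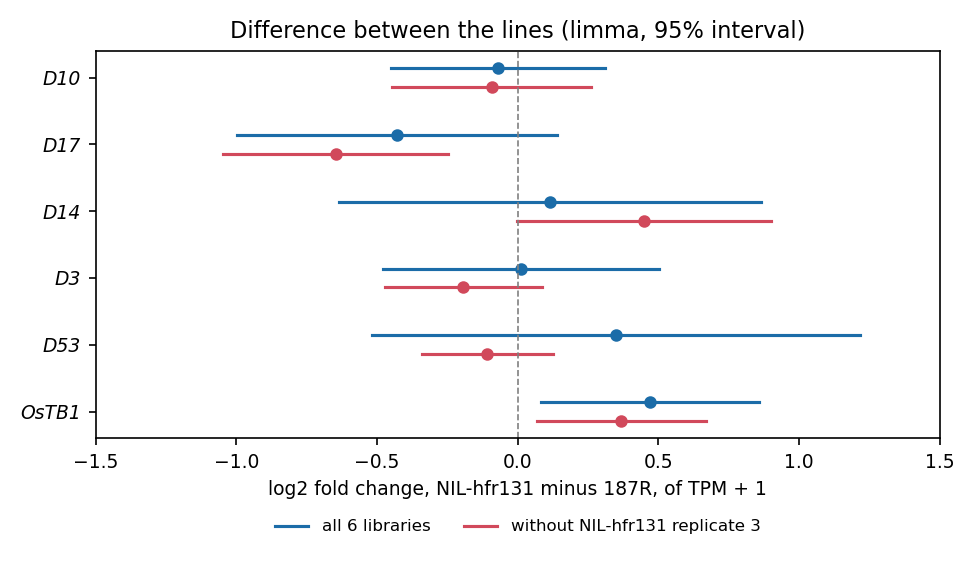
Log2 fold change of each gene between NIL-*hfr131* and 187R on the log2(TPM + 1) scale, with 95% intervals from limma, from all 6 libraries (blue) and without NIL-*hfr131* replicate 3 (red). From all 6 libraries, 5 of the 6 intervals include 0, and that of *OsTB1* runs from 0.082 to 0.86.

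*D10* (LOC_Os01g54270, chromosome 1) encodes the later of the cleavage dioxygenases. Its levels were 1.85, 2.11 and 2.11 TPM in 187R and 2.18, 1.52 and 1.96 TPM in NIL-*hfr131*. The lines overlapped, and this was the steadiest gene of the group, with a highest value only 1.43 times the lowest. The log2 fold change was -0.071 (standard error, SE, 0.16; 95% interval -0.45 to 0.31; adjusted p = 0.854, limma), or -0.093 with replicate 3 of NIL-*hfr131* removed (adjusted p = 0.836, limma). Its locus number is 2220 above that of *OsBRI1* on the same chromosome, and whether it lies within the introgressed fragment was not tested.

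*D17* (LOC_Os04g46470, chromosome 4) encodes the earlier dioxygenase. It was at 1.66, 1.83 and 2.37 TPM in 187R, and NIL-*hfr131* had 0.692, 1.09 and 1.95 TPM. The first 2 NIL-*hfr131* replicates were below all of 187R, whereas replicate 3 lay inside its range. NIL-*hfr131* averaged 1.24 ± 0.645 TPM and 187R 1.96 ± 0.371 TPM (SD, n = 3 libraries of each), and the log2 difference was -0.43 (SE 0.24; 95% interval -0.997 to 0.14; adjusted p = 0.694, limma). When replicate 3 of NIL-*hfr131* was removed, the log2 fold change was -0.65 (95% interval -1.05 to -0.25; adjusted p = 0.137, limma). It was -0.24 when replicate 1 of NIL-*hfr131* was removed instead, and -0.71 with a pseudocount of 0.1. At so low a level, the size of the difference thus rests on single libraries and on the value added before the logarithm. The ratio of *D17* to *D10* was 0.870 to 1.13 in 187R and 0.318, 0.714 and 0.996 in NIL-*hfr131* replicates 1, 2 and 3.

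*D14* (LOC_Os03g10620, chromosome 3), the receptor gene, was at 67.6, 56.7 and 94.0 TPM in 187R. Among the NIL-*hfr131* libraries, replicates 1 and 2 had 92.8 and 102 TPM and replicate 3 had 48.1 TPM. NIL-*hfr131* thus held both the highest and the lowest library, and 187R replicate 3 was close to the first 2 NIL-*hfr131* libraries. The means were 81.1 ± 29.0 TPM in NIL-*hfr131* and 72.7 ± 19.2 TPM in 187R (SD, n = 3), with a log2 fold change of 0.11 (SE 0.32; 95% interval -0.64 to 0.86; adjusted p = 0.884, limma). From the remaining 5 libraries, with replicate 3 of NIL-*hfr131* removed, the value was 0.45 (95% interval -0.0033 to 0.90; adjusted p = 0.342, limma), and it was slightly negative without 187R replicate 2 (-0.048) or without replicates 1 (-0.018) or 2 (-0.088) of NIL-*hfr131*. *D14* was the most variable member within 187R, with a coefficient of variation of 26.4%, compared with 7.43% for *D10*.

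*D3* (LOC_Os06g06050, chromosome 6), the F-box partner of the receptor, was at 8.96, 7.70 and 8.64 TPM in 187R, and NIL-*hfr131* had 6.64, 7.89 and 11.6 TPM. The NIL-*hfr131* libraries lay on both sides of 187R. The log2 fold change was 0.012 (SE 0.21; 95% interval -0.48 to 0.50; adjusted p = 0.984, limma). With replicate 3 of NIL-*hfr131* removed the value was -0.19 (adjusted p = 0.520, limma). The ratio of *D14* to *D3* was 7.35 to 10.9 in 187R, 14 and 13 in NIL-*hfr131* replicates 1 and 2, and 4.15 in replicate 3. The receptor transcript was therefore several times as abundant as its partner in each library, but by a factor that the replicates of NIL-*hfr131* did not share.

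*D53* (LOC_Os11g01330, chromosome 11), the repressor gene, was nearly level in 5 libraries and high in 1. It was at 16.9, 18.3 and 20.02 TPM in 187R. NIL-*hfr131* replicates 1 and 2 had 17.1 and 16.9 TPM, and replicate 3 had 45.4 TPM. Replicate 3 was 2.55 times the mean of the other 5 libraries. The log2 fold change from all 6 libraries was 0.35 (SE 0.37; 95% interval -0.52 to 1.22; adjusted p = 0.715, limma). Without that library it was -0.11 (95% interval -0.34 to 0.13; adjusted p = 0.694, limma), so the higher mean of NIL-*hfr131* came from 1 library.

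Rice carries a close copy of *D53* in the recently duplicated segment at the start of chromosome 12, and how reads shared by such copies were assigned is not given in the sources used here. LOC_Os12g01360, near the start of chromosome 12, was at 18.3, 15.8 and 17.9 TPM in 187R and at 16.9, 16.3 and 41.9 TPM in NIL-*hfr131*. *D53* made up 48.1% to 53.7% of the sum of the pair in every library, and the sum was 33.2 to 38.0 TPM in 5 libraries and 87.3 TPM in NIL-*hfr131* replicate 3. The separate value of *D53* is uncertain for this reason, and the sum shows the same single high library.

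The members deviated unequally in NIL-*hfr131* replicate 3. It was the highest of the 6 libraries for 3 members (*D3*, *D53* and *OsTB1*) and the lowest for 1 (*D14*), and over all tested genes it was the highest for 47.6% and the lowest for 27%. Its deviation from the mean of the other 5 libraries on the log2(TPM + 1) scale was 1.30 for *D53*, 0.52 for *OsTB1*, 0.50 for *D3*, 0.26 for *D17*, 0.0096 for *D10* and -0.73 for *D14*. Only *D53* of the 6 lay more than 1 away, and 6.75% of all tested genes deviated by more than it did. The median deviation of all tested genes was 0.16. The leaf markers summed to 979 TPM in this library, below the others, and the meiosis markers to 50.6 TPM, above the others. It was the lowest library for 4 of the 5 leaf loci. Of the 5 meiosis loci, it was the highest for 3 and the lowest for 1. The part of these markers in the deviations was not tested.

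**Figure D3:**
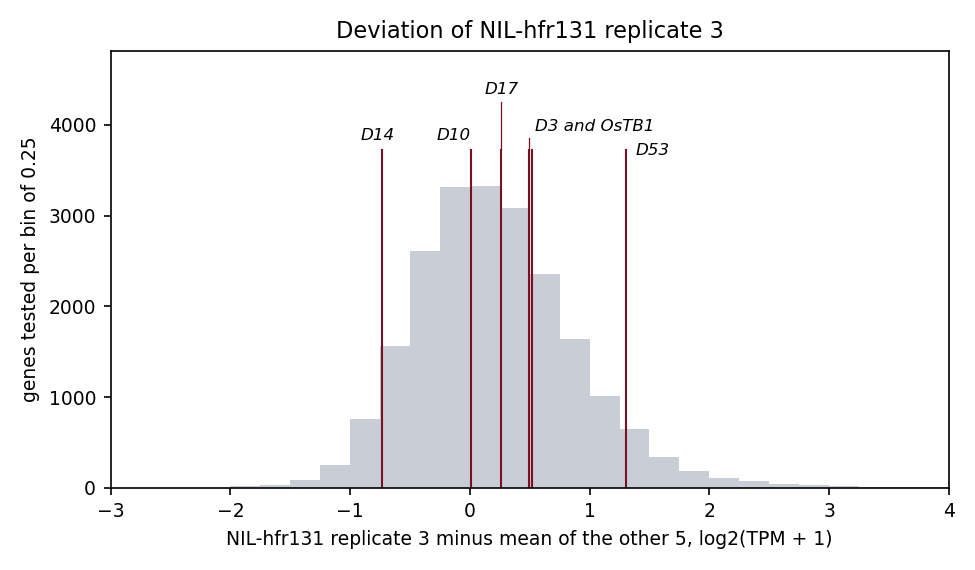
Number of tested genes by the deviation of NIL-*hfr131* replicate 3 from the mean of the other 5 libraries, in log2(TPM + 1), with lines at the 6 genes. *D53* at 1.30 and *D14* at -0.73 lie on opposite sides of the bulk, and 37 genes fall outside the axis.

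*OsTB1* (LOC_Os03g49880, chromosome 3) was the member with separate lines. It was at 3.71, 3.41 and 4.31 TPM in 187R and at 4.98, 5.42 and 6.64 TPM in NIL-*hfr131*, so every NIL-*hfr131* library was above every 187R library. This held for 8.59% of all tested genes in the same direction. Counting either direction, the lines did not overlap in 1 of the 6 members, *OsTB1*, and in 18.5% of all tested genes. The means were 5.68 ± 0.860 TPM in NIL-*hfr131* and 3.81 ± 0.460 TPM in 187R (SD, n = 3), a ratio of 1.49. The log2 fold change was 0.47 (SE 0.16; 95% interval 0.082 to 0.86; unadjusted p = 0.0243, adjusted p = 0.511, limma). A two-sided exact permutation test of the 6 libraries gave p = 0.1, the smallest that 3 against 3 libraries allow. Without NIL-*hfr131* replicate 3 the log2 fold change was 0.37 (95% interval 0.068 to 0.67; adjusted p = 0.243, limma). Leaving out single libraries gave 0.37 to 0.55. The summed tapetum markers were separate between the lines in the same direction, but only with their most abundant locus included. Their part in the level of *OsTB1* was not tested.

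In each library, the members were also set against their sum, which gives the composition of the measured pathway independently of library scaling. The sum was 90.0 to 131 TPM in 187R and 116 to 135 TPM in NIL-*hfr131*. The perception genes *D14* and *D3* made up 71.5% to 81.6% of it in 5 libraries and 51.6% in NIL-*hfr131* replicate 3, whereas *D53* made up 12.5% to 20.3% and 39.2%. The share of the synthesis genes *D10* and *D17* was 3.49%, 4.38% and 3.41% in 187R and 2.31%, 1.93% and 3.38% in NIL-*hfr131*. The share of *OsTB1* was 3.28% to 3.79% in 187R and 4.001% to 5.74% in NIL-*hfr131*. The lines were thus separate in the shares of *OsTB1* and of the synthesis genes, the latter by a margin that was narrow at NIL-*hfr131* replicate 3. In level, the sum of *D10* and *D17* overlapped, at 3.51 to 4.48 TPM in 187R and 2.61 to 3.91 TPM in NIL-*hfr131*. Over all tested genes, the levels of 18.5% did not overlap between the lines. These shares are not independent of one another or of *D14*, and they were not tested.

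**Figure D4:**
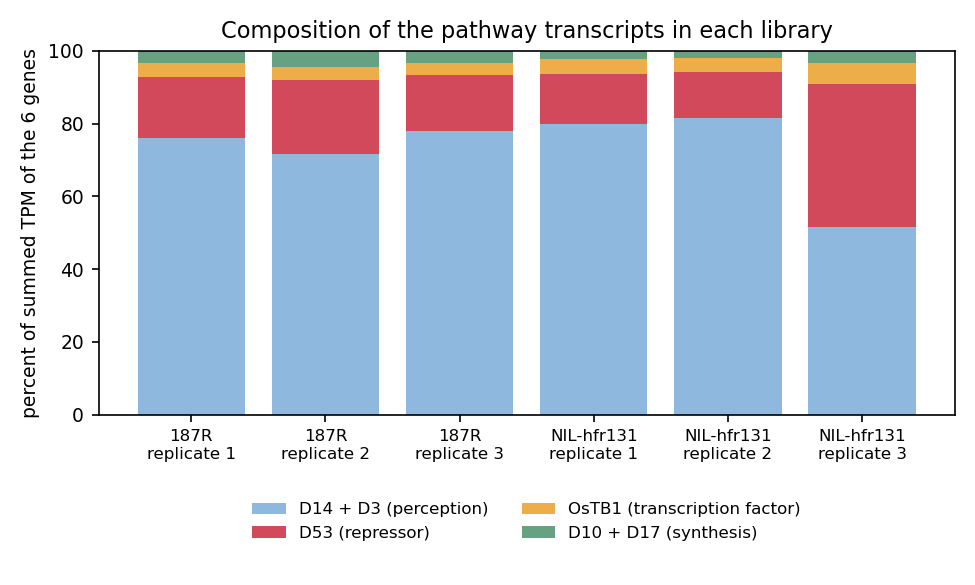
Percent of the summed TPM of the 6 genes taken by each role, 1 bar per library. *D53* takes 39.2% in NIL-*hfr131* replicate 3 and at most 20.3% in the other libraries.

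A further 12 loci of strigolactone and karrikin synthesis, perception and response were read from the same fit. They were listed by identifier, which the deposited values do not pair with names. Of these, 2 were listed at 0 in every library, 9 were tested, and the remaining 1 was below the minimum level. In limma, 0 of the 9 passed the adjusted threshold in either direction, with or without NIL-*hfr131* replicate 3, and 0 passed at an unadjusted *P* under 0.05 in either fit. Their median log2 fold change was -0.040, beside 0.052 over all tested genes, whereas without that library both were negative, at -0.064 and -0.033. The lines did not overlap in 4 of the 9, with 1 higher and 3 lower in NIL-*hfr131*, and 18.5% of all tested genes did not overlap.

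The largest positive difference of this list was in LOC_Os08g15230, at 5.16, 5.69 and 6.09 TPM in 187R and 6.53, 7.12 and 14.3 TPM in NIL-*hfr131*. Its log2 fold change was 0.56 (SE 0.28; adjusted p = 0.661, limma), or 0.24 with replicate 3 of NIL-*hfr131* removed. LOC_Os12g01360 came next at 0.37 (adjusted p = 0.699, limma), or -0.054 with that library removed. On the negative side were LOC_Os06g36920 and LOC_Os08g39890, both at -0.21 (adjusted p = 0.694 for each, limma). With that library removed they were at -0.17 and -0.20. LOC_Os06g36920 was at 7.57, 8.29 and 7.96 TPM in 187R and 7.26, 6.68 and 6.20 TPM in NIL-*hfr131*. LOC_Os08g39890 was at 23.4, 22.2 and 21.7 TPM in 187R and 20.7, 18.2 and 19.0 TPM in NIL-*hfr131*. For both of these loci the lines were separate but close.

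The members were last compared with one another and with the genes whose identifiers accompany the series. Most of these genes were listed by the authors as changed between the lines in these same libraries. A short distance from *OsTB1*, whose lines were separate, to such a gene therefore gives no separate support. The distances were not set against those to all tested genes. Likeness was the root mean square distance between mean-centred log2(TPM + 1) values over the 6 libraries, each member against 20 candidates. The closest pair was *OsTB1* and *D2*, a brassinosteroid synthesis gene, at 0.038. *D2* was at 13.3, 12.1 and 15.6 TPM in 187R and 16.4, 18.1 and 22.9 TPM in NIL-*hfr131*, with the libraries in the same order as for *OsTB1*. Like *OsTB1*, *D2* did not pass the adjusted threshold used here (adjusted p = 0.548, limma, all 6 libraries). *D53* was nearest to *OML4*, a regulator of grain size, at 0.20, and *D3* to *OsBRI1* at 0.21. In NIL-*hfr131* replicate 3, *OML4* and *OsBRI1* were at 234 and 117 TPM, their highest values. *D10* and *D17* were both nearest to the auxin transporter gene *OsPIN1d*, at 0.19 and 0.23. *D10* itself spanned only 0.33 on this scale, so its distance says little about likeness. *D14*, at 0.41 from the gibberellin oxidase gene *OsGA2ox10*, had no near match. Pearson correlations with the nearest gene were 0.99 for *OsTB1*, 0.96 for *D53*, 0.77 for *D3*, 0.72 for *D17*, 0.56 for *D10* and 0.28 for *D14*. These distances describe 6 libraries of which 1 stands apart.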

How the data were processed

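Messenger RNA of young panicles was sequenced for the authors by Sangon Biotech on an MGISEQ-2000 platform. TPM values were deposited by the authors for 42189 genes in 6 libraries, grouped by the genotype label. The aligner, genome build, annotation and filters are not given in the sources used here. The methods name FPKM, but each deposited column summed to 1000000. TPM keeps no depth, so depth per library is unknown and no counting error is given. Whether replicates came from separate plants is not stated, and *P* values measure only the spread between these libraries.

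Genes with a mean of at least 1 TPM were kept, and log2(TPM + 1) was compared between the lines with limma 3.58.1 in R 4.3.3 (trended prior, two-sided, Benjamini-Hochberg over all tested genes, threshold 0.05). Fold changes on this scale understate differences of low genes. Summaries and figures used Python 3.11.15, pandas 2.3.3, numpy 2.4.6, scipy 1.17.1 and matplotlib 3.10.9. The fit was tested on simulated data. Alternatives varied 1 choice at a time. These were leaving out each library, the replicate number as a block, a constant prior, quantile normalization, scaling by median ratios, a 0.1 pseudocount, and a filter at 5 TPM or none.

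All members are named. Of the further pathway loci, those past the threshold, or otherwise the 4 tested with the largest absolute log2 fold change, and for each member its nearest candidate by profile, are named. The members, lists and markers were chosen with earlier results of these data known. Names follow the locus identifiers. The RefSeq gene table shared 0 identifiers with the deposited values, so no positions or sequences are given.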

Additional observations from a re-analysis of the deposited data

How the results depend on the processing

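Of the members and further pathway loci that each alternative tested, 0 passed the adjusted threshold in limma. A minimum mean of 5 TPM left 3 members (*D3*, *D14* and *D53*) and 7 further loci to test. *OsTB1* stayed positive and *D17* negative under every alternative that tested them, with adjusted *P* of 0.243 to 0.904 for *OsTB1* and 0.137 to 0.955 for *D17*. The lowest adjusted *P* of the other members was 0.520 for *D3*, 0.664 for *D10*, 0.342 for *D14* and 0.433 for *D53*, and the highest, without a filter, was 1 for each. The log2 fold change of *D3*, 0.012, was -0.030 with median-of-ratios scaling and -0.075 with quantiles equalized. With each library left out in turn, *D3* ranged from -0.19 to 0.17, *D10* from -0.14 to 0.023, *D14* from -0.088 to 0.45, and *D53* from -0.11 to 0.58. The sign of *D53* turned only without NIL-*hfr131* replicate 3, that of *D10* only without NIL-*hfr131* replicate 2, and the causes were not tested. Over all tested genes, 66 passed with all libraries and 13 to 384 with each left out, the highest without NIL-*hfr131* replicate 3. With the replicate block 16 genes passed, and the members called stayed at 0. Deviations of same-numbered libraries from the mean of their line correlated at -0.21, 0.060 and 0.090 across genes. The mean of NIL-*hfr131* includes replicate 3, which stood apart, so these values cannot decide whether the numbers pair the libraries. TPM keeps no depth, so the counting error of *D10* and *D17*, near 2 TPM, cannot be given.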
